A study of Arabidopsis thaliana with 91 samples.

Results

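Acetylation of histone H3 at lysine 14 (H3K14ac) was examined here at the places where its peaks in wild-type Arabidopsis leaves met no peak of trimethylated lysine 4 (H3K4me3). Peaks of both Col-0 H3K14ac libraries covered each segment over 100 bp or more. Of 19687 such segments, 4508 (22.9%) were chosen by the lack of H3K4me3, as no peak of either Col-0 H3K4me3 library of SET1 overlapped them by 1 bp, and they are called H3K4me3-free segments below. Another 14395 segments were touched by an H3K4me3 peak in both libraries and are called H3K4me3-bearing, and 784 (3.98%) were touched in 1 library only and were set aside. The H3K14ac and SET1 H3K4me3 values of Col-0 selected the segments, so the segments were selected on them and these values are given as description, with no test.

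The study asked how H3K4me3 acts on DNA methylation, and its chromatin immunoprecipitation libraries came from leaves of plants of the Columbia-0 ecotype, 4 to 5 weeks old. Peak lists of 50 libraries among 91 samples were used, in sets that the labels number SET1 to SET11. SDG2-ZF plants carried the catalytic domain of the H3K4 methyltransferase SDG2 joined to the zinc finger ZF108, driven by the UBQ10 promoter; the finger was designed for the FWA gene and binds many other sites. The H3K4me3 libraries of SDG2-ZF (3) and the H3K14ac libraries of SDG2-ZF (2) were set beside their Col-0 partners (2 each). H2A.Z was measured in SDG2-ZF (3), Col-0 (2), SDG2-ZF in rdd (1) and rdd (1), where rdd is the ros1-3 dml2-1 dml3-1 triple mutant that lacks DNA demethylases. Anti-Myc libraries came from plants with Myc-tagged ROS1 crossed to SDG2-ZF (ROS1xSDG2-ZF, 2), from Myc-tagged ROS1 (2) and from untagged Col-0 (1). Other H3K4me3 libraries came from SDG2-ZF in rdd (2) and rdd (2), SunTag-SDG2 in rdr6 (2), a version without a guide in rdr6 (1) and rdr6 (2), SDG2(H1866K)cd, a catalytic-site mutant of the fusion (4), and Col-0 of SET11 (2), and from TRBIP1-ZF (2), in which TRBIP1, a protein that binds TRB factors, is joined to the finger in plants with the unmethylated fwa epiallele, fwa (2), TRBIP1-dCAS9-MQ1v (2) and dCAS9-MQ1v (1), both in fwa x rdr6, and fwa x rdr6 (2). Myc-tagged JMJ14, an H3K4 demethylase, was also measured, crossed to TRBIP1-ZF (JMJ14xTRBIP1-ZF, 2) and by itself (1). In the SunTag lines dCas9 carries the domain to FWA by guide RNAs, and rdr6 limits transgene silencing. The study describes its replicates as biological, each grown on its own plate with its controls beside it, and p-values below measure the spread between such libraries.

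In plants, H3K4me3 marks the first part of transcribed genes, where it commonly lies beside acetylated H3. Lysine 14 is acetylated by GCN5 and related enzymes, and acetylation of H3 loosens the hold of nucleosomes on DNA and serves as a docking site for bromodomain proteins. The histone variant H2A.Z, deposited by the SWR1 complex, occupies the first nucleosomes of active genes and spreads over the bodies of genes that are off but inducible. ROS1 is a DNA glycosylase that removes methylated cytosine, so the segments can be described by the presence of H2A.Z and ROS1 as well as by the gain of H3K4me3 in SDG2-ZF.

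The sequences of 7 segments are shown because the contrasts below turn on them. Each is the central 200 bp of a segment whose midpoint lies in a coding exon, read 5′ to 3′ on the strand of the gene from the RefSeq genome TAIR10.1, in lower case with every CG dinucleotide in capitals. BPC3, a GA-repeat-binding BASIC PENTACYSTEINE factor, and AT1G51538, a plant mobile domain protein, had H2A.Z in 7 of 7 lists and no H3K4me3 peak of Col-0 SET1 in the gene region (chr1:25526836-25527035, minus strand, and chr1:19113482-19113681, plus strand).
BPC3: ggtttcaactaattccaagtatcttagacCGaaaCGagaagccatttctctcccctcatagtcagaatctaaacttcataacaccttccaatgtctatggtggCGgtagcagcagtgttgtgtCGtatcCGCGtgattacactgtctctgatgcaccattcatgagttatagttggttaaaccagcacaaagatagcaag
AT1G51538: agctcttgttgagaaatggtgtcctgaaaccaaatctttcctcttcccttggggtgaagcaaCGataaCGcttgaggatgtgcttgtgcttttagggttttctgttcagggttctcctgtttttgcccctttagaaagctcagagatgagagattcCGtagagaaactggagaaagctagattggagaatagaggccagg
EMB2758, a tetratricopeptide repeat protein, and GIF2, a coactivator that partners growth-regulating factors, had no H2A.Z peak in any of the 7 lists and an H3K4me3 peak elsewhere in the gene region (chr4:16291042-16291241, minus strand, and chr1:73503-73702, plus strand).
EMB2758: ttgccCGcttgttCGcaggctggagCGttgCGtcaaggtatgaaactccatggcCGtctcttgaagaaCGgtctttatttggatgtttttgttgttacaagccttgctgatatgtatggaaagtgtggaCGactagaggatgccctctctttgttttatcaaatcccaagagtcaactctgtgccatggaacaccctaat
GIF2: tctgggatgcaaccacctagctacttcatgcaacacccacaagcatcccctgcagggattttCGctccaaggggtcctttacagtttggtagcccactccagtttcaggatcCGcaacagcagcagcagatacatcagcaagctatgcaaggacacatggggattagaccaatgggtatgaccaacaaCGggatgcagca
AQI, a peptidase family protein, had H3K4me3 in 3 of 3 SDG2-ZF lists (chr4:17926525-17926724, plus strand).
AQI: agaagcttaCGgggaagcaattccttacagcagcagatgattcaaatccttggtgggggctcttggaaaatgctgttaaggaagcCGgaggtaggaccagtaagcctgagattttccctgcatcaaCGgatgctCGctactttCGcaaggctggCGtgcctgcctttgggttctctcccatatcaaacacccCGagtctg
AT4G29610, a cytidine deaminase family protein, and AT2G23060, an acyl-CoA N-acyltransferase family protein, had a Myc peak in both ROS1 lists (chr4:14517763-14517962, plus strand, and chr2:9813048-9813247, minus strand).
AT4G29610: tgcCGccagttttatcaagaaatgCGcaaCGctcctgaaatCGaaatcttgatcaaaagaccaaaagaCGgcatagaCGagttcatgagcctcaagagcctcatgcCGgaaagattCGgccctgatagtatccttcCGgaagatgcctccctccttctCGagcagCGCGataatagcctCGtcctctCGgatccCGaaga
AT2G23060: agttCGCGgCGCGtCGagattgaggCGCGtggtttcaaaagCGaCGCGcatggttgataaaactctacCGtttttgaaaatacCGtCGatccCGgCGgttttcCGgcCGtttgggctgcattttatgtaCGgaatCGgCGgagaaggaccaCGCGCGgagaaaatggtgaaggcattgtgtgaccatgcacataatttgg
The 200 bp held 6 and 3 CG dinucleotides in BPC3 and AT1G51538, 7 and 3 in EMB2758 and GIF2, 7 in AQI, and 15 and 23 in the segments of AT4G29610 and AT2G23060. The other named segments with a Myc peak in both ROS1 lists had midpoints outside coding exons and held fewer. In 300 bp, AT4G23420, AT3G05365 and AT4G03465 held 11, 4 and 5 CG dinucleotides, and AT4G29610 and AT2G23060 held 18 and 33.

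The lists held 808 to 30556 peaks each and no read counts, and the depth of a list is described here by its number of peaks. The study's reporting summary gives read counts for most libraries, which were not used here. By those counts, the H3K4me3 and H3K14ac libraries of rdd in set 7 were less deep than those of SDG2-ZF in rdd. The SDG2-ZF H2A.Z libraries of set 4 were likewise less deep than that of Col-0, and in set 5 the Col-0 library was the less deep one. In SET1, H3K4me3 replicate 1 of Col-0 was less deep than every SDG2-ZF library. Replicate 2 of Col-0 was less deep than SDG2-ZF replicates 1 and 3. The Myc libraries of ROS1 were less deep than those of ROS1xSDG2-ZF in sets 4 and 7. The H3K14ac lists of Col-0 held 22435 and 23467 peaks and the SET1 H3K4me3 lists of Col-0 15370 and 15827. The lists were not all cut at the same q value: the lowest −log10 q was below 2 in 27 lists, including those of H3K14ac in Col-0, and 2 or more in 23 lists, including those of H3K4me3 in SET1. The absence of H3K4me3 holds for the SET1 lists only. In the Col-0 lists of SET11, which held 28847 and 22285 peaks of low fold (median 1.73 and 1.80), 55.3% and 39.9% of the H3K4me3-free segments had an H3K4me3 peak, against 95.3% and 92.9% of the H3K4me3-bearing segments. Intervals given for shares are Wilson 95% intervals and cover counting error only.

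The H3K4me3-free segments were short and lay inside genes. Their length had a median of 278 bp (quartiles 187 and 427 bp, range 100 to 3326 bp), against 613 bp for H3K4me3-bearing segments, and their lowest H3K14ac fold over the Col-0 lists had a median of 2.02 (range 1.38 to 5.505), against 3.25. By midpoint, 1373 (30.5%) lay no more than 500 bp from a coding-gene start, against 67.9% of H3K4me3-bearing segments, and 2729 (60.5%) in the rest of a coding gene or the 1 kb upstream of it, against 29.3%. Pseudogenes held 197 (4.37%, against 0.813%), other genes 139 and the space between genes 70 (1.55%, against 0.181%). Of those inside a gene, the median lay at 0.51 of the way from gene start to gene end, against 0.17 for H3K4me3-bearing segments. Coding exons held the midpoint of 3329 (73.8%, against 58.4%), introns 10.1% (against 27.5%), 5' UTRs 2.99% (against 9.57%) and 3' UTRs 1.89% (against 0.424%). Gene-poor 100 kb windows held 4.90%, against 4.04%.

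**Figure D1:**
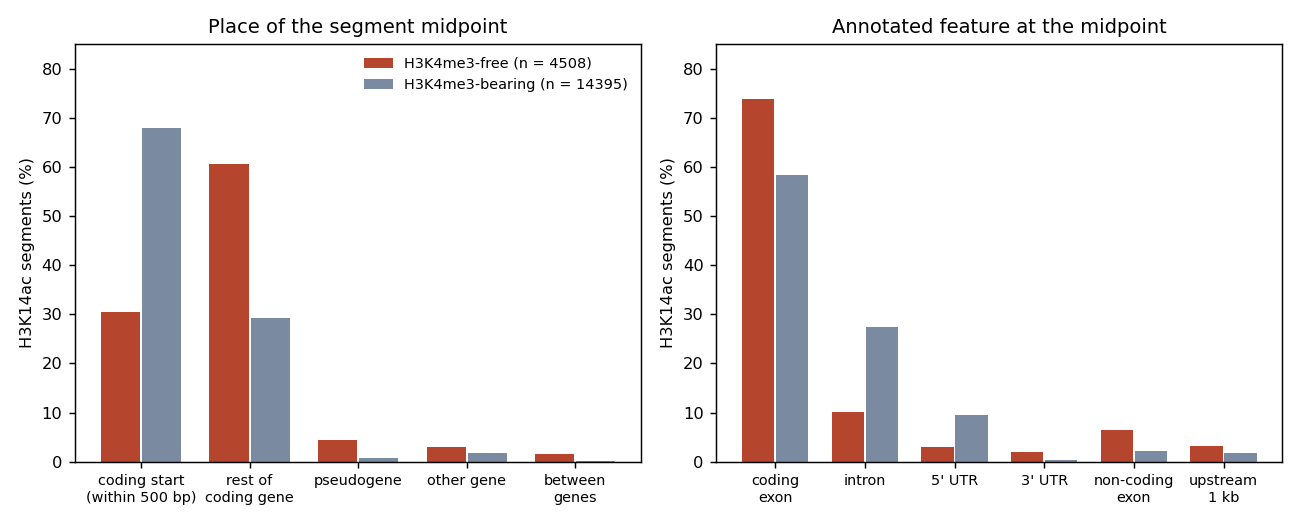
Place of the midpoint of H3K14ac segments in percent of each class, by gene class (left) and by annotated feature (right), for H3K4me3-free segments (n = 4508) and H3K4me3-bearing segments (n = 14395). The H3K4me3-free segments were at 30.5% near coding starts and 60.5% in the rest of coding genes, against 67.9% and 29.3%.

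The distance of H3K4me3-free segments from H3K4me3 varied widely, and it was not set beside that of other positions. The nearest SET1 Col-0 H3K4me3 peak lay at a median of 1966 bp (range 0 to 199847 bp), within 200 bp for 181 segments, within 1000 bp for 1291 and within 5000 bp for 3768. There was 1 segment that abutted a peak and 5 that lay within 10 bp, the abutting one included, while 5 segments outside the class overlapped an H3K4me3 peak by only 1 to 10 bp. At the limit of length, the 58 segments less than 10 bp above it had an H2A.Z peak in 56.9% and 44.8% of cases in Col-0 replicates 1 and 2, and the 63 H3K4me3-free stretches up to 10 bp below it in 42.9% and 33.3%. In all, 510 H3K4me3-free stretches were shorter than 100 bp.

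The segments fell in 3772 gene regions, each taken from 1 kb upstream to the end of the gene, and 3452 of these genes were protein-coding (12.6% of 27444). Each segment was assigned only to the gene whose region it overlapped most. A gene is said to hold the segments assigned to it, so a gene without one can still overlap a segment of its neighbour. A gene mostly held 1 segment (3212 genes), with 2 in 474 genes, 3 in 72 and 4 or more in 14. The region of the gene held no SET1 Col-0 H3K4me3 peak at all for 2671 of the 4437 segments in gene regions (60.2%) and held one elsewhere for 1766 (39.8%). Segments of the first kind lay earlier in the gene (median position 0.40) than those of the second kind (0.67), and their genes were shorter (median 2020 bp against 2935 bp). Another H3K14ac segment touched by H3K4me3 lay in 1018 of the 3772 genes.

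The genes with the most segments that are named here were 3070 bp (BRX-LIKE3) to 9787 bp (AT4G38780) long. Over all segments in gene regions, gene length had a median of 2408 bp and an upper quartile of 3395 bp. AT4G38780, a PRP8-like splicing factor gene of 9787 bp, held 7 segments with lowest folds of 1.68 to 3.12, and HAF2, which encodes a TAF1-type histone acetyltransferase, held 6, all with an H2A.Z peak in at least 1 list. Genes with 4 each included AGO6, an Argonaute of RNA-directed DNA methylation, CESA10, a cellulose synthase subunit, HA9, a plasma membrane proton pump, and BRX-LIKE3. Segments of 1 gene often lay under the same broad peaks and are not independent.

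By RefSeq product names, the coding genes that held an H3K4me3-free segment differed in make-up from those with an H3K4me3-bearing segment. Ribosomal protein genes were 16 of them (0.463%, against 2.01%, and 1.25% of all coding genes) and genes of photosystem or chlorophyll-binding proteins 3 (0.0869%, against 0.394%, and 0.288% of all). The H3K4me3-bearing shares of both classes were thus above those of all coding genes. Cytochrome P450 genes made up 1.33% against 0.542% (0.904% of all coding genes), F-box genes 2.23% against 0.966% (2.38% of all), and protein kinase genes 7.04% against 6.04% (5.06% of all). The F-box share was thus near that of all coding genes. Among the genes whose region had no H3K4me3 peak, 62 encoded F-box proteins (3.09%). These shares are descriptions without a test.

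Of the 10 segments with the highest H3K14ac in Col-0, 6 lay near coding starts, 2 in the rest of coding genes and 2 in pseudogenes. The highest covered 2059 bp of the pseudogene AT5G26582 (chr5:9389691-9391749), with H3K14ac folds of 4.24 and 5.33 in SDG2-ZF against 5.505 and 6.20 in Col-0, and 5.23 in SDG2-ZF in rdd against 3.27 in rdd. It had H2A.Z in 7 of 7 lists (folds 1.72 to 3.80) and no Myc-ROS1 peak. BPC3 had H3K14ac folds of 4.40 and 4.34 in SDG2-ZF against 4.37 and 4.33 in Col-0, and H2A.Z folds of 3.06, 4.25 and 2.68 in SDG2-ZF against 3.43 and 3.87 in Col-0. The folds of both groups overlapped for both marks at BPC3. AT3G13160, a tetratricopeptide repeat protein, had a segment of 174 bp, 191 bp from an H3K4me3 peak, with a peak in only 1 SDG2-ZF list (fold 4.68) against folds of 4.54 and 5.47 in Col-0. The others of the 10 were AT5G36280 (an acyl carrier protein), AT4G30800 (an OB-fold nucleic acid-binding protein), AT4G11547, AQI, AT1G51538, the pseudogene AT2G18820 and AT4G00390 (a storekeeper-related regulator), with lowest folds over the Col-0 lists of 4.16 to 4.50.

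H2A.Z covered the H3K4me3-free segments nearly as often as the others in the same libraries. A peak was present at 49.9%, 74.0% and 34.6% of them in SDG2-ZF replicates 1 to 3, at 67.9% (interval 66.5 to 69.2) and 57.3% (55.9 to 58.8) in Col-0 replicates 1 and 2, at 70.5% in SDG2-ZF in rdd and at 53.0% in rdd. H3K4me3-bearing segments had a peak at 54.6%, 72.1%, 35.9%, 75.4%, 61.8%, 73.3% and 59.8% in the same order. The share was lower at H3K4me3-free segments in 6 of 7 libraries, by 3.68 ± 3.25 percentage points (SD, n = 7; exact two-sided sign-flip permutation test, p = 0.0469, smallest p possible 0.0156; adjusted p = 0.328 by Benjamini-Hochberg over the 7 comparisons between libraries, none of which passed 0.05 after adjustment). The direction rested on what was counted: it turned to +4.04 points with segments of at least 300 bp, to +5.39 with H3K14ac peaks of −log10 q of at least 5 and to +7.39 when a peak had to cover at least 50% of the segment, with p = 0.0156 by the exact test for each. The unadjusted p was 0.0625 to 0.0938 in the same exact test when any H2A.Z library other than SDG2-ZF replicate 2 was left out. With the class drawn without Col-0 H3K14ac replicate 1 or without replicate 2, the difference was −11.13 or −9.12 points (exact p = 0.0156 for each), and without Col-0 H3K4me3 replicate 2 of SET1 it was −2.82 points (exact p = 0.0625). Both Col-0 lists had a peak at 2523 of the 4508 (56.0%, against 58.3% of H3K4me3-bearing segments and 57.9% of all segments), 1289 (28.6%, against 28.2%) had a peak in 7 of 7 lists and 878 (19.5%, against 13.4%) in none.

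**Figure D2:**
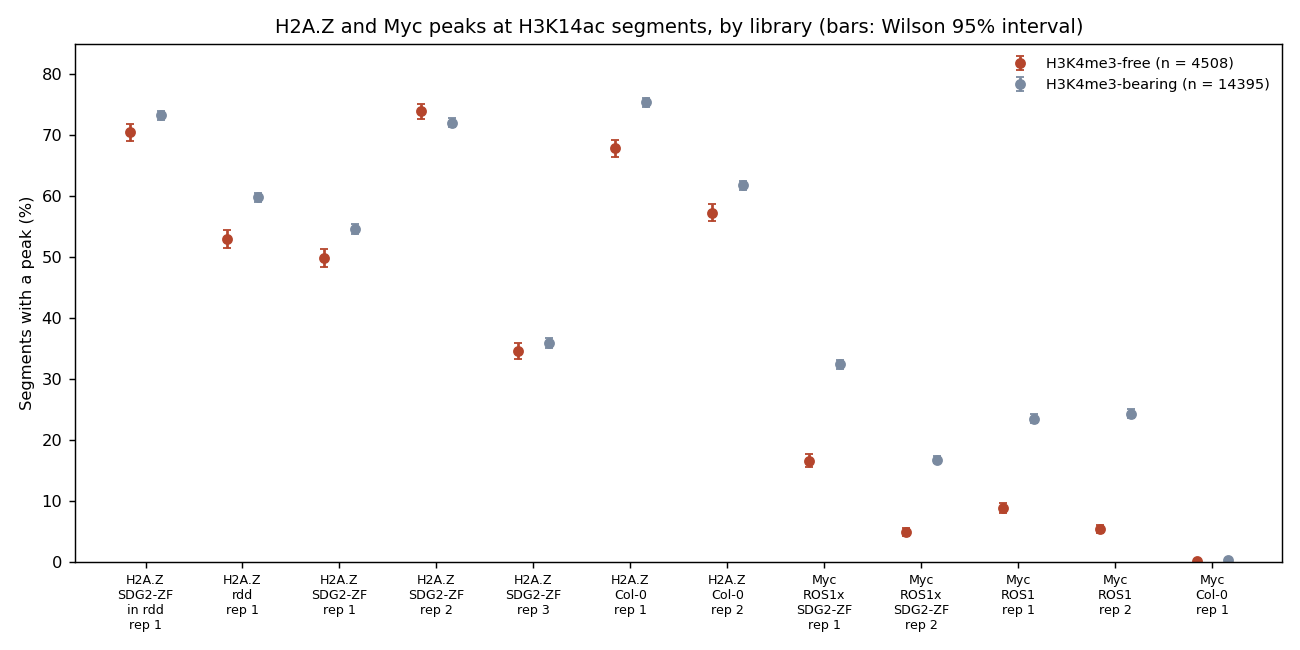
Share of segments with a peak, in percent, in each H2A.Z and Myc library, for H3K4me3-free segments (n = 4508) and H3K4me3-bearing segments (n = 14395), with Wilson 95% intervals. The difference between classes was −7.55 to 1.88 points in the H2A.Z libraries and −19.0 to −11.9 points in the Myc libraries of ROS1 and ROS1xSDG2-ZF.

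The place within the gene separated segments with and without H2A.Z, and the divisions used for this were chosen after the values were seen, so no test is given. Within 500 bp of coding starts, H3K4me3-free segments had H2A.Z more often than H3K4me3-bearing ones in 7 of 7 libraries, by 15.5 points on average (88.0% and 79.8% in Col-0 replicates 1 and 2, against 74.4% and 61.8%). In the rest of coding genes they had it less often in 7 of 7 libraries, with a mean difference of −16.98 points (57.2% and 46.0% in Col-0, against 78.2% and 61.9%). By length, H3K4me3-free segments of 300 to 499 bp had more H2A.Z than H3K4me3-bearing ones in 7 of 7 libraries (by 12.6 points on average), those under 200 bp in 4 of 7 and those of 1000 bp or more in 2 of 7 (mean difference −1.55 points). By GC content in 300 bp, they had more H2A.Z in 7 of 7 libraries with under 40% GC (5.59 points) and less in 7 of 7 with 40 to 45%, 45 to 50% and at least 50% GC (−10.6, −18.0 and −13.9 points).

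Whether the same gene also had H3K4me3 gave a wide split. Segments in gene regions without a SET1 H3K4me3 peak had H2A.Z at 85.2% and 74.9% in Col-0 replicates 1 and 2, and at 44.7% to 88.9% over the 7 libraries. Segments in gene regions with H3K4me3 elsewhere had it at 42.1% and 31.3% in Col-0, and at 19.99% to 51.9% over the 7 libraries. The share was higher in the gene regions without H3K4me3 in each of the 7 libraries. With each coding gene divided into 5 equal parts, Col-0 replicate 1 had H2A.Z at 93.5% of segments in the first part and 79.7% in the last where the gene region had no H3K4me3, and at 83.3% and 32.0% where it had H3K4me3. Among segments under 200 bp the shares in Col-0 replicate 1 were 80.5% without and 31.8% with H3K4me3 in the gene region. In Col-0 replicate 1, H2A.Z was present at 38.7% of the segments within 200 bp of an H3K4me3 peak and at 85.5% of those over 5000 bp away.

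**Figure D3:**
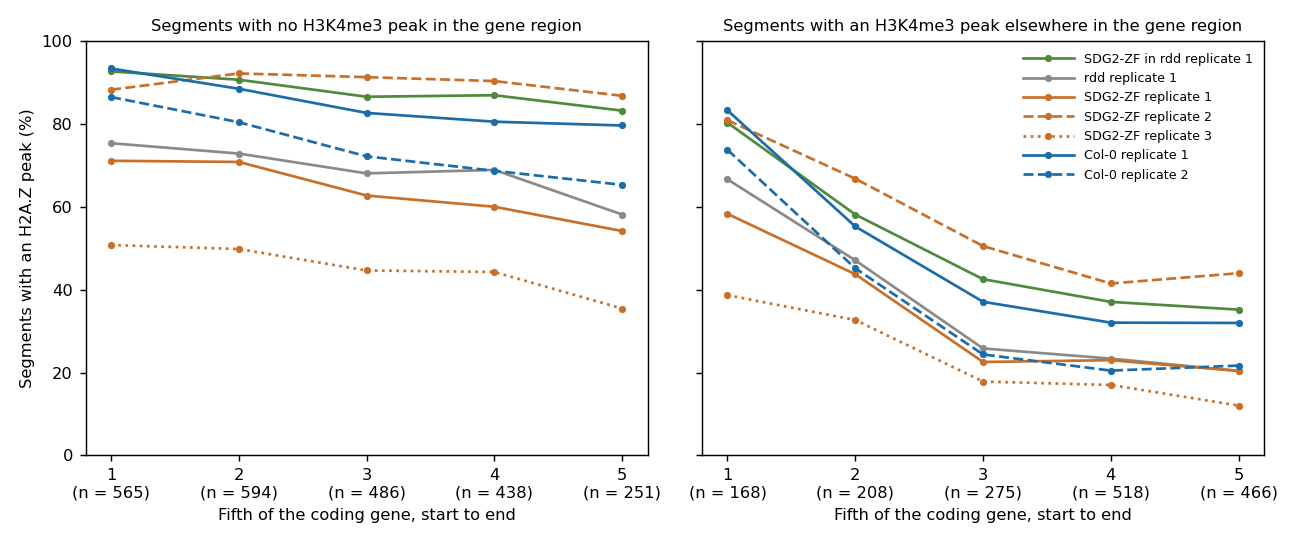
Share of H3K4me3-free segments with an H2A.Z peak (y axis, percent) along the coding gene, divided into 5 equal parts from start to end (x axis, n below each), a line per library, for gene regions with no SET1 Col-0 H3K4me3 peak (left) and with one elsewhere (right). In Col-0 replicate 1 the share ended at 79.7% in the last part on the left and at 32.0% on the right.

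The 5 named segments without H2A.Z lay in coding exons (EMB2758, GIF2 and AT5G60335), a 3' UTR (MYB99) and upstream of a start (AT2G11890). EMB2758 had H3K14ac folds of 3.84 and 3.75 in SDG2-ZF against 4.02 and 4.72 in Col-0, and GIF2 3.91 and 4.64 in SDG2-ZF against 3.95 and 3.79 in Col-0, with no peak in the rdd list at either. Both were also free of Myc peaks and of H3K4me3 in SDG2-ZF. AT5G60335, a dehydratase-like protein, had folds of 3.02 and 3.43 in Col-0, MYB99, a MYB factor, 3.05 and 3.01, and AT2G11890, annotated as an adenylate cyclase, 3.25 and 2.99. MYB99 and AT2G11890 had H3K4me3 in 3 of 3 SDG2-ZF lists, with folds of 2.08 to 2.57 and 1.97 to 2.47, and the other 3 in none. Over all 29 H3K4me3 lists, MYB99 had a peak in 13 and AT2G11890 in 17. Segments with no H2A.Z in any list had a median of 7 CG dinucleotides in 300 bp, and those with H2A.Z in all 7 lists 14.

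In SDG2-ZF, H2A.Z at the segments averaged 52.8% ± 19.9 (SD, n = 3), against 62.6% ± 7.47 in Col-0 (n = 2), a difference of −9.80 points that was smaller than the spread between SDG2-ZF libraries (exact two-sided permutation test, p = 0.5, smallest p possible 0.1). The direction differed between the sets of the labels. Within set 4 the difference was −25.7 points (2 libraries against 1), and within set 5 it was +16.6 points (1 against 1). The SDG2-ZF lists held 18658, 29052 and 12217 H2A.Z peaks and the Col-0 lists 28280 and 21273, and the shares had the same order as these numbers.

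Myc-tagged ROS1 was found at few H3K4me3-free segments. A peak was present at 16.6% and 4.81% in ROS1xSDG2-ZF and at 8.78% (interval 7.99 to 9.65) and 5.30% (4.68 to 5.99) in ROS1, against 32.4%, 16.7%, 23.5% and 24.3% of H3K4me3-bearing segments. The list of untagged Col-0 had a peak at 3 of the 4508 (0.0665%). It held 808 peaks and came from set 6, while the tagged libraries came from sets 4 and 7, whose untagged samples had no list. It is thus not a matched background. The share was lower than at H3K4me3-bearing segments in 4 of 4 libraries, by 15.3 ± 2.92 points (SD, n = 4). The mean difference was −5.95 points when a peak had to cover at least 50% of the segment and −1.91 points with equal numbers of peaks. The exact two-sided sign-flip permutation test gave the smallest p that 4 libraries allow, which is above 0.05. Between ROS1xSDG2-ZF (10.7% ± 8.33, n = 2) and ROS1 (7.04% ± 2.46, n = 2) the difference of 3.66 points was within the spread (exact permutation p = 1, smallest 0.333): it was 7.81 points within set 4 and −0.488 points within set 7. The lists of ROS1xSDG2-ZF and ROS1 held 14212 and 9724 peaks in set 4 and 5580 and 7924 in set 7.

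By place, again as a description, the gap between the classes was wider in gene bodies than at starts. In the rest of coding genes the mean difference over the 4 libraries was −32.6 points, with 6.71% and 4.58% in ROS1 against 38.5% and 39.98%. Near coding starts it was −4.58 points and lower in 3 of 4 libraries. With at least 50% GC in 300 bp, the share of H3K4me3-free segments with a Myc peak was 11.5% to 31.0% over the libraries, and with under 40% GC 3.08% to 16.6%.

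Both ROS1 lists shared a peak at 146 of the segments (3.24%, against 14.7% of H3K4me3-bearing segments and 11.9% of all segments), and 97 had a peak in all 4 libraries. Of the 146, 64 lay near coding starts, 117 (80.1%) had H2A.Z in both Col-0 lists and 68 (46.6%) had H3K4me3 in 3 of 3 SDG2-ZF lists. Among segments with a Myc peak in neither ROS1 list, 52.8% had H2A.Z in both Col-0 lists and 9.85% had H3K4me3 in 3 of 3 SDG2-ZF lists. The 146 had a median of 17 CG dinucleotides in 300 bp, against 9 at segments with a Myc peak in neither list.

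AT4G29610, whose sequence above holds 15 CG dinucleotides, had Myc folds of 5.51 and 2.35 in ROS1xSDG2-ZF against 4.32 and 1.83 in ROS1, and H3K4me3 folds of 2.58, 3.09 and 2.63 in SDG2-ZF, with an H3K4me3 peak in 21 of the 29 lists. AT2G23060 had Myc folds of 2.95 and 2.32 in ROS1xSDG2-ZF against 3.38 and 3.12 in ROS1. AT4G23420, a Rossmann-fold protein, had 2.92 and 4.16 in ROS1xSDG2-ZF against 2.30 and 3.85 in ROS1. Folds of both groups overlapped at AT4G29610 and AT4G23420, and at AT2G23060 both ROS1 values were higher. AT3G05365 and the non-coding gene AT4G03465 also had a Myc peak in both ROS1 lists, and all 5 had H2A.Z in 7 of 7 lists.

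H3K4me3 appeared at part of the segments in SDG2-ZF. A peak was present at 16.1% (interval 15.1 to 17.2), 23.5% (22.3 to 24.8) and 22.3% (21.1 to 23.6) in replicates 1 to 3, a mean of 20.6% ± 3.97 (SD, n = 3), against 0 in the Col-0 lists of SET1 by the rule. The 3 lists held 17308, 18836 and 18256 peaks, more than the 15370 and 15827 of Col-0. By the reporting summary, Col-0 replicate 1 was also less deep than all 3 SDG2-ZF libraries, and the part of depth in these shares was not tested. With the 9647 peaks of lowest p kept in every H3K4me3 list, the mean was 0.983%, so that the peaks at these segments were among the weaker ones of their lists. In all 3 lists a peak was present at 592 segments (13.1%, beside 77.3% of all 19687 segments, most of which had H3K4me3 by their class), in 2 at 310, in 1 at 396 and in none at 3210.

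The 592 segments were also looked up in the lists from plants without a fusion. Both rdr6 lists had H3K4me3 at 246 of them and neither had it at 221, and 39 (6.59%) had no H3K4me3 peak in any of the 10 lists outside SET1 from plants without a fusion. Both SDG2-ZF in rdd lists had a peak at 502 (84.8%) and both SunTag-SDG2 lists at 345 (58.3%). Over all H3K4me3-free segments, single lists had a peak at 13.5% and 17.2% in rdr6 and 55.3% and 39.9% in Col-0 of SET11. The shares were 28.0% and 26.8% in SDG2-ZF in rdd and 31.6% and 27.4% in SunTag-SDG2. The share of all H3K4me3-free segments without a peak in the 10 lists was not counted, so the 39 are not read as a trait of the 592. By place, 257 (43.4%) lay near coding starts and 290 (49.0%) in the rest of coding genes, and of the 3210 segments with no SDG2-ZF peak 26.8% and 63.8%. H2A.Z was present in both Col-0 lists at 418 (70.6%) of the 592 and at 51.5% of the 3210, and a Myc peak in both ROS1 lists at 11.5% and 1.31%. The 592 were longer (median 368 bp against 252 bp), and the part of length in these shares was not tested.

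AQI had the highest H3K4me3 folds among the 5 named segments of this kind, 6.23, 7.22 and 6.59 in SDG2-ZF, with H3K14ac folds of 1.85 and 2.08 in SDG2-ZF against 4.27 and 7.53 in Col-0. Both H3K14ac values of SDG2-ZF were below those of Col-0, at a segment of 239 bp that lay 234 bp from a Col-0 H3K4me3 peak. AQI was named for its high H3K14ac folds in Col-0, so this order is tied to the selection and is not read as a loss. AT4G30800 had H3K4me3 folds of 2.37, 3.52 and 2.53, BPC3 1.55, 2.52 and 1.81, AT4G11547, a C1 domain protein, 2.14, 3.002 and 2.87, and AT5G44010, a Fanconi anemia group F-like protein, 1.95, 2.69 and 2.199. These last 4 had H3K4me3 peaks in 20 to 23 of all 29 H3K4me3 lists.

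Outside SET1, the share of segments with H3K4me3 was broadly higher in lists with more peaks. It was 28.0% and 26.8% in SDG2-ZF in rdd (19418 and 18063 peaks), against 15.3% and 0.577% in rdd (16158 and 12992 peaks), a difference of 19.5 points (exact permutation p = 0.333, the smallest that 2 against 2 libraries allow), with 12.7 points within set 6 and 26.2 within set 7. It was 31.6% and 27.4% in SunTag-SDG2 in rdr6 (18203 and 18013 peaks), against 13.5% and 17.2% in rdr6 (16188 and 16578), a difference of 14.1 points (exact permutation p = 0.333, again the smallest possible), and 10.3% in the library without a guide. The values of the fusion lines and their backgrounds did not overlap in either pair. With equal numbers of peaks the differences were 1.03 points (exact p = 0.667, with overlap between SDG2-ZF in rdd and rdd) and 0.810 points (exact p = 0.333). In TRBIP1-ZF, TRBIP1-dCAS9-MQ1v, dCAS9-MQ1v, fwa and fwa x rdr6 the share was 9.23% to 13.5%.

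In SDG2(H1866K)cd the share was 48.1%, 46.7%, 6.52% and 54.5% in replicates 1 to 4, against 55.3% and 39.9% in Col-0 of SET11, a difference of −8.66 points (38.9% ± 21.9, n = 4, against 47.6% ± 10.9, n = 2; exact permutation p = 0.733, smallest 0.0667). Replicate 3 had 9647 peaks against 23067 to 27855 in the other 3, and without it the difference was +2.15 points. The SET11 peaks at the segments went with GC content: the Col-0 replicates had a peak at 22.0% and 12.7% of segments with under 40% GC and at 88.1% and 77.2% of those with at least 50%. In rdr6 the shares ran the other way, 25.7% and 29.8% under 40% GC against 10.9% and 15.2% at 50% or more.

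**Figure D4:**
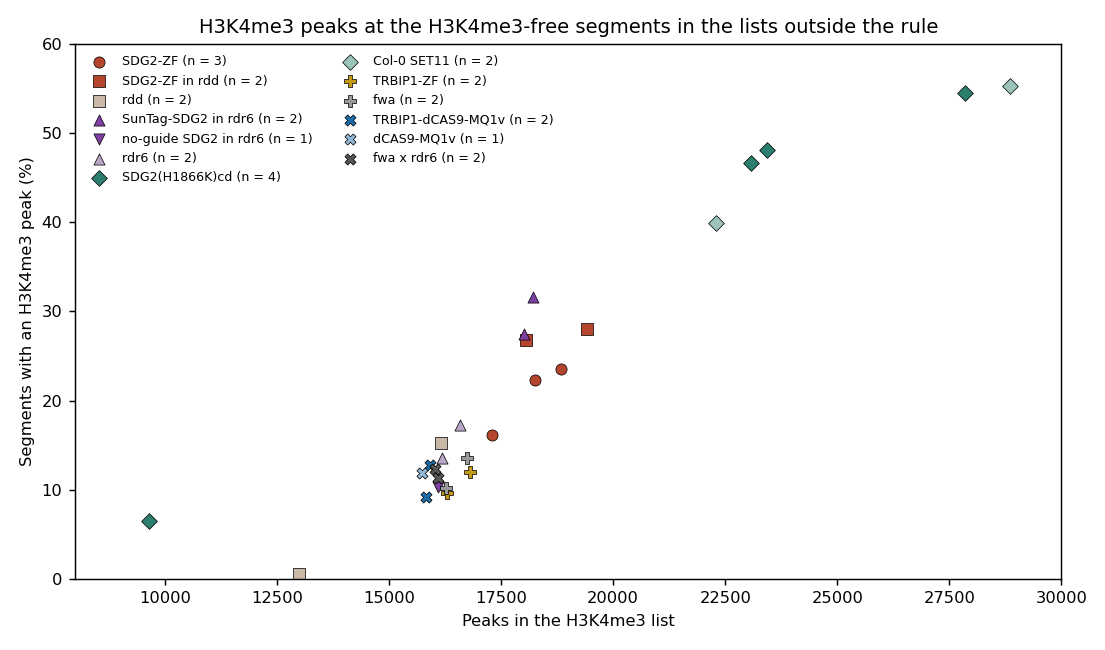
Share of H3K4me3-free segments (n = 4508) with an H3K4me3 peak, in percent, against the number of peaks in the list, a point for each H3K4me3 list outside Col-0 of SET1, marked by group with its number of libraries. The points run broadly upward with the number of peaks, from 0.577% in rdd replicate 2 (12992 peaks) to 55.3% in Col-0 of SET11 replicate 1 (28847 peaks).

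Over all 29 H3K4me3 lists, a segment had a peak in a median of 4 (range 0 to 27). A group of 764 segments (16.9%) had none in any list: 209 near coding starts, 451 in the rest of coding genes, 58 in pseudogenes, 30 in other genes and 16 between genes. H2A.Z was present in both Col-0 lists at 384 of them (50.3%) and a Myc peak in both ROS1 lists at 2. They were short (median 227 bp) and lower in GC (median 41.7%) than all H3K4me3-free segments (44.7%). At the other end, 253 segments had H3K4me3 in 20 or more lists.

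H3K14ac itself recurred at most of the segments in other libraries. A peak was present at 78.9% (interval 77.7 to 80.1) and 80.1% (78.9 to 81.2) in SDG2-ZF and at 79.2% in SDG2-ZF in rdd, while H3K4me3-bearing segments had one at 99.2% in each of these 3 libraries. The list of SDG2-ZF in rdd held 23235 peaks, against 5635 in rdd, where 2.09% of H3K4me3-free and 36.2% of H3K4me3-bearing segments had a peak. Both SDG2-ZF lists had H3K14ac at 3220 segments (71.4%) and neither at 561. Among the 592 segments with H3K4me3 in 3 of 3 SDG2-ZF lists, 509 (86.0%) had H3K14ac in both SDG2-ZF lists.

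The 94 loci of 10 gene lists, chosen with earlier results of these data known, placed the segments among familiar genes. An H3K4me3-free segment lay at 20 of the 94 genes (21.3%, beside 12.6% of all coding genes), another H3K14ac segment only at 33 and none at 41. Of 8 genes of DNA demethylation and H3K4 methylation, 4 held one. ROS1 itself held 4 segments, all 1649 bp or more from an H3K4me3 peak. In SDG2-ZF replicate 1 their H3K14ac folds, in order of position, were 1.77, 2.47 and 2.47, with no peak at the last, and in SDG2-ZF replicate 2 it was 5.84 at all 4, against 1.85 to 2.77 in Col-0. The value of SDG2-ZF replicate 2 came from 1 peak of 8274 bp, in a list of 23900 peaks with a median width of 611 bp in which only 2 were that wide. Each had a Myc peak in at least 3 of the 4 ROS1 and ROS1xSDG2-ZF libraries; these plants carry a ROS1 transgene, and the part of its DNA in those peaks was not tested. IDM1, a histone acetyltransferase that acts with ROS1, held 2 segments with an H3K14ac fold of 11.4 at both in SDG2-ZF replicate 2 and no peak in replicate 1, against folds of 4.94 in Col-0 replicate 1 and 1.91 and 2.098 in Col-0 replicate 2. Here too both lay under 1 very wide peak, of 7443 bp in SDG2-ZF replicate 2 and of 7376 bp in Col-0 replicate 1, with nearly the same ends (chr3:5039931-5047373 and chr3:5039956-5047331). Whether DNA other than acetylated chromatin of the plant, such as that of a transgene, contributed to the wide peaks at ROS1 and IDM1 was not tested, and the folds there are not read as acetylation. DME, a demethylase of the central cell, held 1 with no H2A.Z.

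FWA, the gene the zinc finger was designed for, held 2 segments with midpoints in an intron and a coding exon (chr4:13040844-13041303 and chr4:13041418-13041774), 2714 and 3236 bp from the nearest coding start. Neither SDG2-ZF list had an H3K14ac peak there, against folds of 2.69 at both in Col-0 replicate 1 and 2.33 and 2.98 in replicate 2, and the fold was 2.37 at both in SDG2-ZF in rdd. None of the 29 H3K4me3 lists had a peak at these 2 segments, although H2A.Z was present in 3 and 4 lists. The study reports a strong H3K4me3 peak at the FWA promoter and enrichment of H3K14ac at FWA in SDG2-ZF. These 2 segments were selected for their Col-0 H3K14ac peaks, lie outside the promoter and do not bear on that.

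FLC, the MADS-box repressor of flowering, had a segment of 322 bp near its start (chr5:3179044-3179365), 2840 bp from an H3K4me3 peak of Col-0 SET1. Its H3K14ac folds were 3.86 and 4.38 in SDG2-ZF against 2.79 and 3.48 in Col-0, without overlap between the groups, and its H3K4me3 folds in SDG2-ZF 2.45, 3.93 and 3.23. An H3K4me3 peak lay at this segment in 14 of the 29 H3K4me3 lists, so it was not particular to SDG2-ZF. H2A.Z was present in 7 of 7 lists, and Myc folds were 5.39 and 2.56 in ROS1xSDG2-ZF against 3.91 and 2.75 in ROS1, which overlapped. MAF5, a relative of FLC, had H2A.Z in 1 list and no H3K4me3 in any list. Of the 8 flowering-time genes FT, SOC1, SVP, MAF4 and LFY were assigned no H3K14ac segment.

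Of the 6 heat-shock genes of the list 4 held segments. In the wider class of heat-shock product names the share was near that of other genes, with 36 genes holding one (1.04% of the genes with an H3K4me3-free segment, against 1.15% of those with an H3K4me3-bearing one and 0.889% of all coding genes). HSFA2, a heat-shock factor, and HSP17.6II, a small chaperone, had H2A.Z in 7 of 7 lists near their starts, with folds of 2.74 to 5.61 and 2.94 to 5.77, and no H3K4me3 in SDG2-ZF. HSP70 had H2A.Z in 7 of 7 lists and H3K4me3 folds of 2.33, 2.54 and 2.498 in SDG2-ZF over 1027 bp of its coding exon, with an H3K4me3 peak in 12 of the 29 lists. HSP90.1, another chaperone, had H2A.Z in only 1 list.

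CBF1, a factor of the cold response, was the only one of 14 stress-inducible genes with a segment, which had H2A.Z in 7 of 7 lists (folds 4.39 to 5.34), Myc folds of 3.90 and 3.25 in ROS1xSDG2-ZF against 3.85 and 1.83 in ROS1, and an H3K4me3 peak in 17 lists. Among 11 genes of salicylic acid and defence, ICS1, which makes isochorismate for salicylic acid, and PAD4, a defence regulator, held segments in coding exons with H2A.Z in 7 of 7 lists and none of the SDG2-ZF H3K4me3 peaks. Of 16 Polycomb-silenced regulators, PHE1, an imprinted MADS-box gene, held a segment with H2A.Z in 7 of 7 lists and H3K4me3 folds of 2.23, 2.93 and 2.38 in SDG2-ZF (a peak in 5 of the 29 lists), and SEP3, a floral MADS-box gene, one with no H2A.Z and no H3K4me3 in any list. The other 14 held no H3K14ac segment.

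The remaining lists gave few. The clock genes GI and PRR9 held segments with H2A.Z in 0 and 5 lists. MBD9, which acts in H2A.Z deposition, held 2 without H2A.Z, and the other 8 genes of acetylation and H2A.Z deposition held none. Of 5 housekeeping genes ACT2, an actin, held 1 and EF1a, a translation elongation factor, 2, and none of 7 photosynthesis genes held one.

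**Figure D5:**
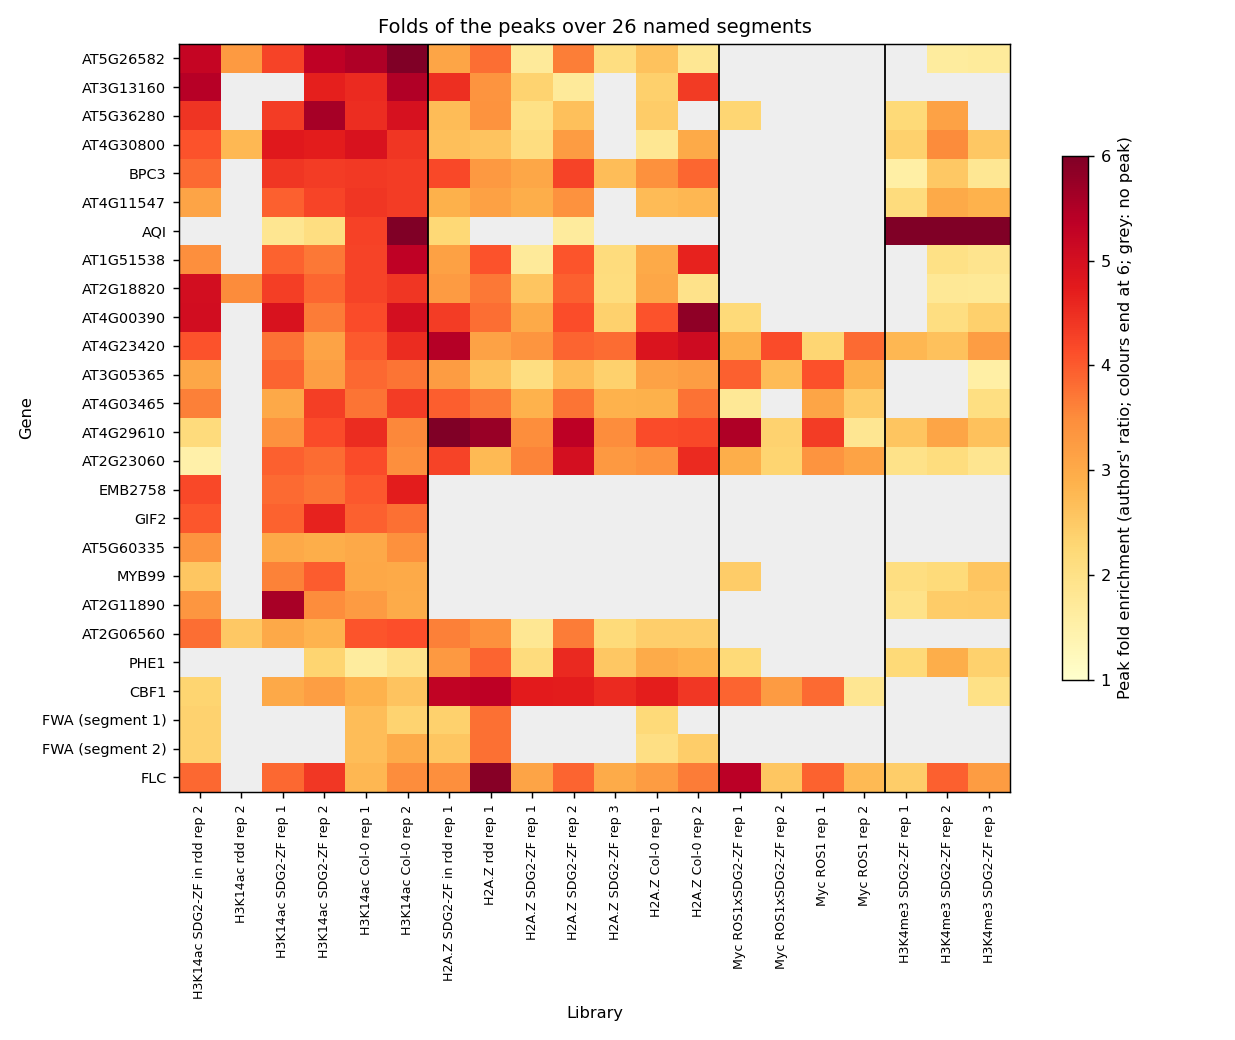
Fold enrichment of the peak over each named segment (rows, genes) in each library (columns, grouped as H3K14ac, H2A.Z, Myc and H3K4me3), grey where the library had no peak and colours ending at 6. BPC3 and FLC had H2A.Z in all 7 libraries, EMB2758 and GIF2 in none, and AQI had the darkest H3K4me3 cells with folds of 6.23, 7.22 and 6.59.

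Outside coding genes the share with H2A.Z depended on the place. In Col-0 replicates 1 and 2 it was 81.2% and 72.1% in pseudogenes, 64.7% and 45.3% in other genes and 58.6% and 42.9% between genes, and over the 7 libraries the mean was 67.9%, 48.2% and 43.1% at these places. The longest segment ran for 3326 bp over the pseudogene AT2G05280, with H3K14ac folds of 4.603 and 4.96 in SDG2-ZF against 2.94 and 2.86 in Col-0, H2A.Z in 4 lists and H3K4me3 folds of 2.30, 4.09 and 3.02 in SDG2-ZF. It had an H3K4me3 peak in 12 of the 29 lists. Both H3K14ac values of SDG2-ZF lay above those of Col-0. AT5G45113, a relative of mitochondrial transcription termination factors, had 2961 bp with H2A.Z in 7 of 7 lists and H3K4me3 in 3 of 3 SDG2-ZF lists and in 8 of the 29 lists in all. The pseudogene AT2G06560 had 2775 bp, 22576 bp from any Col-0 H3K4me3 peak, with H3K14ac folds of 3.03 and 2.84 in SDG2-ZF against 4.05 and 4.11 in Col-0, H2A.Z in 7 of 7 lists and no H3K4me3 in any of the 29 lists. Between genes, chr2:57293-58087 and chr2:16890722-16891315 had H2A.Z in 7 of 7 lists and chr3:1482850-1483354 in none.

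The base composition of the segments was shifted toward higher GC content. In 300 bp around the midpoint, GC content had a median of 44.7%, against 42.3% in H3K4me3-bearing segments, and CG dinucleotides a median of 10, against 12. Under 40% GC lay 715 of the 4508 H3K4me3-free segments and 5050 of the 14395 H3K4me3-bearing ones. At 50% GC or more lay 788 and 1790. Short motifs were searched on both strands of the same 300 bp, and overlaps with other motifs were not removed. The telobox AAACCCTA, a telomere-repeat motif bound by TRB proteins, was in 4.30% of H3K4me3-free segments, 11.9% of H3K4me3-bearing ones and 10.0% of all segments. The site II element TGGGCC was in 5.50%, against 2.61% (3.30% of all), and the GA repeat GAGAGA, to which BPC factors bind, in 32.6%, against 42.5% (40.001% of all). The telobox was also less frequent when only segments near coding starts were counted (7.14%, against 13.8%). These matches describe the letters of the windows and were not tested.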

How the data were processed

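Per the submitters' processing notes and the study's methods, the authors trimmed reads with Trim Galore 0.6.5, mapped them to TAIR10 with Bowtie2 2.1.0, removed duplicates with SAMtools 1.9 and called peaks per library with MACS2 2.2.1, with no control library named among the parameters; tracks were made with deepTools 3.1.3. The deposited lists give each peak's fold enrichment, a ratio over the background of its own library, and the −log10 of its p and q. Thresholds differed between lists, which can move any share with a list's depth. Of 863269 lines, 1490 on organelles were left out and 10375 repeats counted once, leaving 851404 peaks in 50 lists (29 H3K4me3, 6 H3K14ac, 7 H2A.Z, 8 Myc). The other 41 samples were not analysed here, and read depth was not used.

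Segments, gene places (TAIR10.1, 37899 genes), sequence features and exact permutation tests were computed in Python 3.11.15 with NumPy 2.4.6, SciPy 1.17.1 and pandas 2.3.3, and figures with matplotlib 3.10.9. A peak counted as present with an overlap of 1 bp. Libraries, not segments, were the units of every test. In the H2A.Z, Myc and rdd comparisons, replicates 1 and 2 of the groups came from the same set of the labels, so that their numbers pair them by set; deviations of same-numbered libraries correlated at −0.174 to −0.0857, 0.39 and 0.116. The SET2 and SET11 comparisons lay within 1 set, where the number is only a name (−0.0202 to 0.0158). The segment code was tested on simulated peaks. Named segments were, by the lowest H3K14ac fold over the Col-0 lists with 1 segment per gene: the 10 highest; the 5 highest each with H3K4me3 in 3 of 3 SDG2-ZF lists, with Myc in both ROS1 lists and none in untagged Col-0, with no H2A.Z, and over 1 kb from H3K4me3; the 3 highest in pseudogenes and between genes; the 3 longest; and those at genes of the lists. Rules, members and lists were chosen with earlier results of these data known. Alternatives changed the q limit, segment length, H3K4me3 lists, distance, overlap and numbers of peaks, and left out each library.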

Additional observations from a re-analysis of the deposited data

Results flagged for a closer look

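The list of SDG2(H1866K)cd replicate 3 stood apart from the other 3 of its group in the share of H3K4me3-free segments with an H3K4me3 peak, 6.52% against 46.7% to 54.5%. Its gap to the next value was 0.837 of the range of the group, above Dixon's critical value for 4 samples; 1 group was large enough for this check, and chance exceeds the limit in about 5% of groups. The list held 9647 peaks.

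The Myc libraries of JMJ14, a histone demethylase, enter no comparison above. Their peaks met 9.16% and 2.48% of the H3K4me3-free segments in JMJ14xTRBIP1-ZF replicates 1 and 2 (5678 and 3814 peaks) and 1.80% in JMJ14 (1572 peaks), against 0.0665% in untagged Col-0 (808 peaks). H3K4me3-bearing segments had 10.6%, 9.17%, 2.52% and 0.333% in the same order.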

How the results depend on the processing

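Of 219 alternatives, 159 left the result with the same direction and call or within its spread. This tally is no measure of stability. Except for H2A.Z between classes, the smallest p of each comparison lay above 0.05, so only a change of sign could count as a change. With equal peaks, falls from 19.5 to 1.03 points (rdd), 14.1 to 0.810 (SunTag) and −15.3 to −1.91 (Myc between classes) thus counted as the same. With −log10 q of at least 5 for H3K14ac, 300 bp as minimum length, or SET11 peaks also excluded, there were 1638, 2008 and 1829 H3K4me3-free segments, with 36.4%, 31.9% and 33.5% near coding starts, H3K4me3 in SDG2-ZF at 31.9%, 28.5% and 12.8%, H3K14ac in SDG2-ZF at 82.6%, 93.2% and 77.7%, and 4, 8 and 8 list genes; GC content was then lower than in H3K4me3-bearing segments by 0.333 points (−0.333) in the last case. With equal numbers of peaks H3K4me3 in SDG2-ZF was at 0.983% and H3K14ac at 3.53%, and with 50% coverage H3K14ac was at 73.1%.

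The H2A.Z difference between classes was −2.77 points when all lists were held to −log10 q of at least 2 (exact p = 0.0781), −0.457 without H3K4me3 within 500 bp (p = 0.734), and turned to 5.39, 4.04, 7.39 and 1.87 points with the q limit of 5, 300 bp, 50% coverage and equal peaks; p over all alternatives ran from 0.0156 to 0.734. With equal peaks SDG2-ZF minus Col-0 was 0.266 points and SDG2(H1866K)cd minus Col-0 1.33; within set 5 the first was 16.6, and within set 7 ROS1xSDG2-ZF minus ROS1 was −0.488.

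Leaving out each library gave 4701 to 7796 segments (7796 and 6807 without H3K14ac replicate 1 or 2), 26.2% to 33.1% near starts, H3K4me3 in SDG2-ZF at 15.5% to 27.8%, H3K14ac at 60.5% to 81.5%, 20 to 31 list genes, H2A.Z differences between classes of −11.1 to −2.82 points (p from 0.0156 to 0.0938; the call was lost without SET1 H3K4me3 replicate 2 and without any H2A.Z library other than SDG2-ZF replicate 2), SDG2-ZF minus Col-0 −20.4 to −0.688, ROS1xSDG2-ZF minus ROS1 −2.23 (without ROS1xSDG2-ZF replicate 1) to 9.55, and SDG2(H1866K)cd minus Col-0 −16.4 to 2.15 (without replicate 3).

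Paired by number (replicate block), mean differences were −0.688 for H2A.Z, 3.66 for Myc, −0.222 for SDG2(H1866K)cd, 19.5 for rdd and 14.1 points for SunTag, no test of 2 pairs can reach 0.05, and pairing changed no call. Shares depend on how many peaks each list holds, and read depth was not used; peaks missing from a list are not evidence that the mark is absent.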
